A study of Mus musculus with 44 samples.

Results

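At embryonic day 9.5 (E9.5), the gut tube of the mouse holds cells of extraembryonic origin beside its epiblast-derived cells. The data compare these cells in the hindgut (exHindgut) with the endoderm of the yolk sac (YsEndo), its closest relative by origin that stayed outside the embryo. The comparison comprised 8 of the 44 deposited libraries, 4 labelled as exHindgut and 4 labelled as YsEndo, and was chosen by these labels alone. All 8 came from wild-type chimeric embryos, made by aggregating an mCherry-positive CD1/G4 host morula with GFP-positive G4 embryonic stem cells, so that red fluorescence marked descendants of the host. Both groups were sorted as EPCAM-positive, mCherry-positive cells from pools of 4 embryos per library, and the full-length, low-input polyA RNA-seq followed the RNA arm of the Smart-RRBS protocol. For exHindgut the extraembryonic tissues were removed, the most posterior piece of the embryo was taken and EPCAM-positive cells were enriched on magnetic beads before the sort, whereas the yolk sac was sorted without the bead step. Tissue and preparation therefore cannot be told apart. Nor can fewer cells of a type be told apart from less RNA per cell, since these are bulk libraries. Nothing in the labels states that the embryos of different pools came from separate litters. Each library was made from few sorted cells, by the paper's methods. The p-values therefore measure a spread between libraries that mixes pools, cell sampling and amplification.

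The visceral endoderm surrounds the early embryo, feeds it by taking up and digesting maternal proteins, and secretes lipoproteins and carrier proteins much as the liver does later. Its proximal part becomes the yolk sac endoderm and keeps this role. Cells of its distal part are intercalated into the definitive endoderm at gastrulation and end up in the gut tube. There, position along the body axis is marked by Cdx and Hox transcription factors and set by Wnt, FGF, BMP and retinoic acid signals around the tail bud.

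Values are TPM, the share of each gene among all transcripts after correction for length, summed per gene. Differences are exHindgut minus YsEndo on the log2(TPM + 1) scale, which understates the change of low genes. The standard error (SE) is that from limma. A gene was called higher or lower at a Benjamini-Hochberg adjusted p under 0.05 and a log2 difference beyond 1. The 10 most abundant genes of each library held 11.9 to 12.5% of all transcripts in YsEndo and 5.88 to 6.07% in exHindgut. The counts of genes called between exHindgut and YsEndo are therefore also given after median-ratio rescaling of the libraries. How far those 10 genes account for the shift between the scalings was not tested.

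The deposited coverage amounted to 3.53 to 12.04 Gb aligned per exHindgut library and 4.91 to 6.73 Gb per YsEndo library. Counted over all gene types, more genes exceeded 1 TPM in exHindgut (13224 to 13483) than in YsEndo (11292 to 11437). Replicates correlated at 0.942 to 0.951 in exHindgut and 0.980 to 0.988 in YsEndo, and libraries of different groups at 0.681 to 0.708 (Pearson, across genes). Among marker lists for other cells, blood markers summed to 0.665 to 10 TPM in exHindgut and 4.56 to 8.37 in YsEndo, and endothelial markers to 45.3 to 66.2 and 28.8 to 43.3, nearly all of it Egfl7. Summed levels were higher in every exHindgut library for markers of mesenchyme (51.3 to 61.2 against 10.2 to 17.5), of neural cells (25.8 to 36 against 0.211 to 1.76), of surface ectoderm (42.2 to 69.1 against 0 to 0.378) and of germ cells (56.9 to 75.4 against 10.9 to 14.1). Pax3 supplied most of the neural sum, Dlx5 of the ectodermal sum and Kit of the germ cell sum, while Sox10, Elavl3 and Krt5 were at or near 0. Markers of tail bud mesoderm are given beside the signalling genes below, and the groups overlapped for trophoblast markers (17 to 43.2 against 19 to 36.3).

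As gut against yolk sac endoderm, the labels held for genes that define each tissue. The hindgut list is set beside midgut cells further below. Cdx2, the transcription factor of posterior endoderm (ENSMUSG00000029646, chr5:147300805-147307270 in mm10), was at 334, 205, 231 and 205 TPM in exHindgut and 12.8, 15.8, 23.9 and 16.7 in YsEndo. It differed by 3.74 ± 0.20 (SE) with an adjusted p of 1.51e-08 in limma, a 14.1-fold ratio of means. Shh, the Hedgehog ligand of gut epithelium, was at 16.7, 66.9, 60.2 and 51.3 TPM against 0.156, 0, 0 and 0, with exHindgut library 1 the lowest of its group. Of the genes that mark the posterior trunk, Hoxc9 was at 36.4 to 46.4 TPM and Hoxa9 at 61 to 97.4 in exHindgut, both listed at 0 throughout YsEndo. Hoxc8 was at 45.4 to 68.1 TPM against 0 to 0.133 and Hoxb9 at 38.4 to 48.6 against 0 to 0.49. Of the 9 tested genes among 10 that define hindgut, 7 were called higher (6 after rescaling), 5 of which passed the filter on low values only through exHindgut and so had to differ. The other members are epithelial genes that both tissues carried. The sorted antigen Epcam was higher by 1.11 as deposited and by 0.55 after rescaling, where it was not called. The pioneer factor Foxa2 differed by 0.78 (adjusted p = 0.00443, limma) and E-cadherin, encoded by Cdh1, by -0.49, called lower only after rescaling at -1.04. Cdx1 reached 1 TPM in 1 exHindgut library and was not tested.

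All 10 genes that define yolk sac endoderm were called lower in exHindgut under either scaling. Their summed level was 133 to 711 TPM in exHindgut and 64274 to 75368 in YsEndo. Afp, the fetal serum carrier alpha-fetoprotein (ENSMUSG00000054932, chr5:90490737-90508907), was at 22.1, 109, 437 and 176 TPM in exHindgut and 24518, 23926, 27039.6 and 23871 in YsEndo, a 133-fold ratio and a log2 difference of -7.71 ± 0.64 (SE; adjusted p = 5.35e-07, limma). The exHindgut libraries thus differed among themselves in residual Afp, library 3 being the highest and library 1 the lowest, without approaching YsEndo. Ttr, the carrier of thyroid hormone, followed the same order of libraries at 4.48, 95.9, 201 and 125 TPM.

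**Figure D1:**
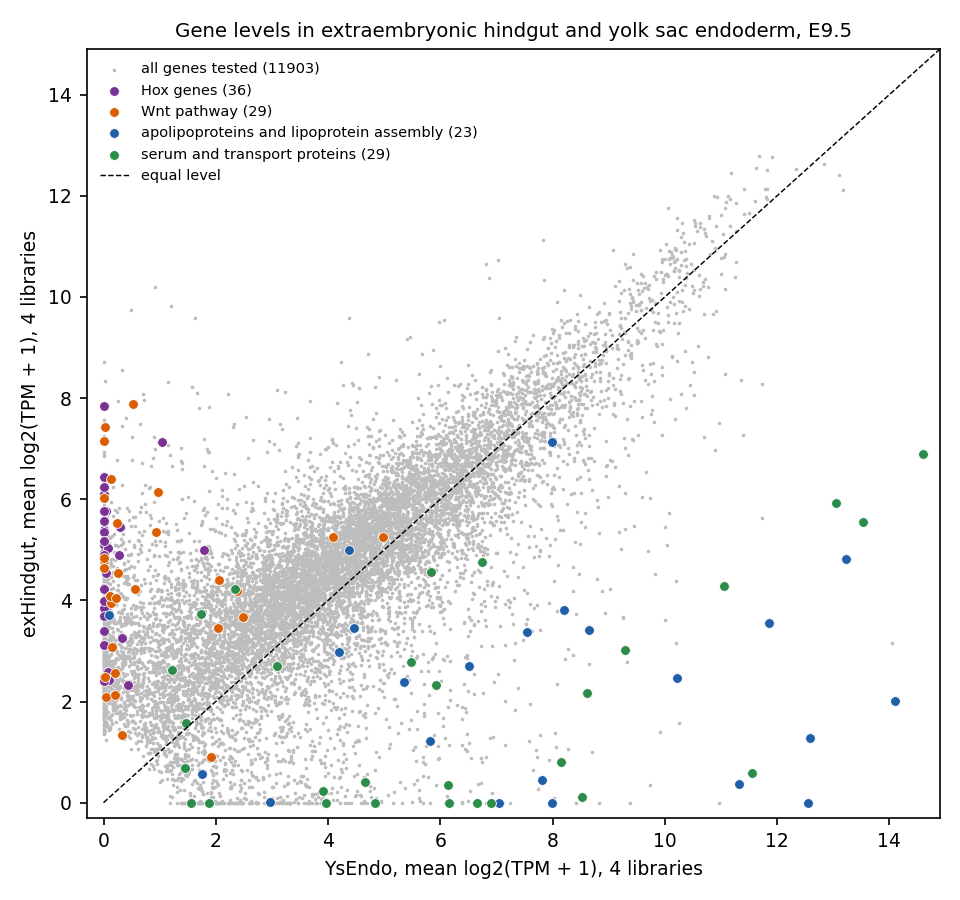
Mean level of each tested gene in YsEndo (horizontal axis) and exHindgut (vertical axis), both as log2(TPM + 1) over 4 libraries; grey points are all 11903 genes tested and colours mark members of 4 lists. Hox genes and most Wnt pathway genes lie along the left edge, near 0 in YsEndo, and most apolipoproteins and serum proteins lie well below the line of equal level.

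Across the transcriptome, 5524 of 11903 tested protein-coding genes were called, 4035 (33.9%) higher and 1489 (12.5%) lower in exHindgut. After rescaling the split became 2596 higher (21.8%) and 2326 lower (19.5%), since the median log2 difference of all genes moved from 0.56 to 0.05. All 2596 genes higher after rescaling were among the 4035, and all 1489 lower genes remained lower. Libraries of the groups did not overlap, with exHindgut above, for 5496 genes (46.2%) and, with exHindgut below, for 2054 (17.3%). Those shares are the background for each list that follows. Changes beyond 8-fold on the fitted scale numbered 707 upward and 372 downward. The filter itself fixed part of this, because 949 genes passed it only through exHindgut and 256 only through YsEndo.

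Among genes with a mean of at least 20 TPM in the higher group, the largest rise was that of Ifitm1. Ifitm1, an interferon-induced membrane protein used as a marker of posterior embryonic tissue, was at 1105, 1560, 940.2 and 1200.1 TPM in exHindgut and 1.54, 1.11, 1.07 and 0.143 in YsEndo (9.29 ± 0.24, adjusted p = 4.00e-11, limma). Apela, a secreted peptide ligand of the apelin receptor, was at 772 to 944 TPM against 0 to 1.24. Next came Fgf8, Igfbp2 (8.63), which binds insulin-like growth factors, Capn6 (8.31), Pla2g7 (8.22), Ifitm2 (7.96), Hoxa10, the chromatin architectural protein gene Hmga2 (7.69), T, Lef1 and Nrep (7.38). The largest fall was that of a lipoprotein gene. Apoc2, the activator of lipoprotein lipase, was listed at 0 in all 4 exHindgut libraries and at 5390.2 to 7266 TPM in YsEndo (adjusted p = 8.98e-15, limma). Apoa1, Apoa2 (-11.31), Spp2 (-10.97), Lgals2 (-10.96), Apoa4, the calcium-binding S100g (-10.89), Cubn, Fxyd2 (-9.39), Amn and Npl (-8.53) followed.

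**Figure D2:**
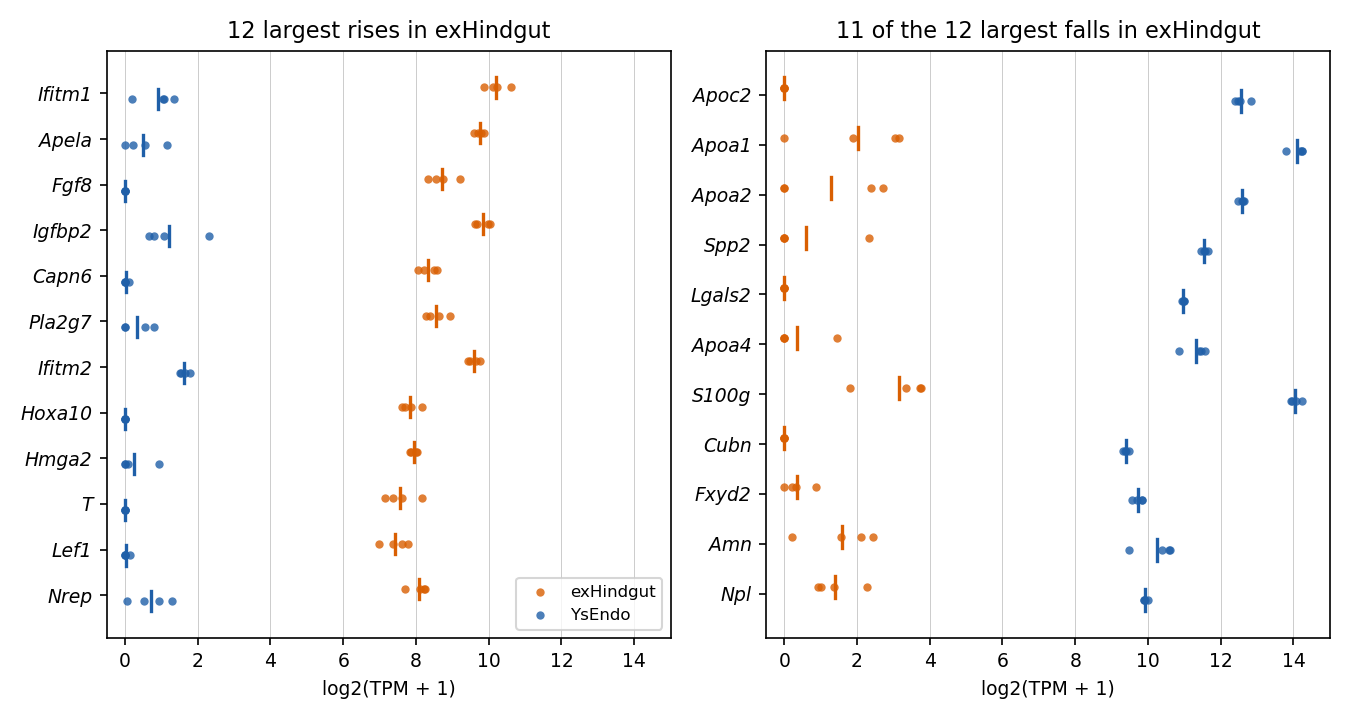
Level of the 12 largest rises (left) and 11 of the 12 largest falls (right) in each library, as log2(TPM + 1); orange points are the 4 exHindgut libraries, blue points the 4 YsEndo libraries, and short lines are group means. No gene shown has overlapping groups, and several genes are listed at 0 in all libraries of the lower group.

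The posterior programme went beyond Cdx2. Of 34 intestinal and posterior factors listed, RNA-binding proteins among them, 22 were tested. Of these, 17 were called higher (16 after rescaling) and 2 lower, beside 33.9% and 12.5% of all genes, and 7 of the 22 passed only through exHindgut. The SoxC factors Sox11 and Sox4 differed by 6.34 and 5.41. Evx1, a homeobox gene of the posterior embryo, was at 39.4, 49.3, 35.8 and 50.9 TPM in exHindgut and listed at 0 throughout YsEndo, and Tlx2 rose by 4.88 in the same way. Sox9 was at 24.1 to 28.9 TPM against 0 to 0.0855. Hes1, a Notch-responsive repressor, was at 261 to 371 TPM against 13 to 28.4 (3.87), and Sall4 at 138 to 188 against 26.2 to 31.3. Of the 2 lower members, the RNA-binding Lin28a was at 77.1 to 98.5 against 172 to 188. Its paralogue Lin28b moved the other way, at 7.51 to 18.5 against 0.279 to 1.64. Id2 (0.00) and Ovol1 (-0.58) were not called.

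Hox genes were close to silent in YsEndo. Of 39, 36 were tested and all 36 were called higher under both scalings, with a median difference of 4.62 (4.30 rescaled) beside 0.56 (0.05) for all genes. As 33 of the 36 passed the filter only through exHindgut, the count carries no weight of its own and the levels are the measurement. The Hox sum was 1296 to 1424 TPM in exHindgut and 4.18 to 6.96 in YsEndo, where 24 of the 39 were listed at 0 in every library. Hoxa10 (ENSMUSG00000000938, chr6:52231197-52240854) was the most abundant at 285, 209, 196 and 233 TPM, followed by Hoxa7 (107 to 198), Hoxc10 (62.7 to 103), Hoxa9 and Hoxd10 (57.4 to 74.6). YsEndo retained a little Hoxb7 at 1.79 to 4.07 TPM and Hoxa7 at 0.427 to 1.75. Hoxb1, Hoxb13 and Hoxd12 were not tested.

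Along the gut, the gap depended on the paralogue group. Groups 1 to 4 averaged 191 TPM in sum in exHindgut and 99.9 in exMidgut, extraembryonic cells sorted in the same way from the midgut of such embryos (4 libraries), a ratio of 1.92. For groups 5 to 8 the sums were 393 and 73.8 (5.32-fold) and for groups 9 to 13 they were 757 and 92.0 (8.23-fold). Against exMidgut, 4 of 11, 9 of 11 and 14 of 14 tested genes of these groups were called higher, against a background of 4.5% of all genes higher and 6.78% lower. Some of these genes were near 0 in exMidgut and passed the filter through exHindgut, so they had to differ. Hoxc11 averaged 0.0736 TPM in exMidgut and 29.4 in exHindgut, and Hoxd11 0.26 and 47.0. How many passed in that way was not counted, so the sums are the measurement. The embryonic group from the hindgut, emHindgut (4 libraries), is labelled as EPCAM-positive cells positive for GFP with low mCherry. These are epiblast-derived cells that also carried red signal, which the study ascribes to remnants taken up from dying host cells. mCherry averaged 2.39 ± 2.95 TPM (SD, n = 4) there and 7064 ± 286 in exHindgut. Compared with emHindgut, exHindgut stood at 0.585, 0.676 and 0.736 times the sum, and 6 Hox genes (Hoxa5, Hoxb1, Hoxb2, Hoxb7, Hoxc12 and Hoxd12) were called lower, where 1.7% of all genes were lower and 1.37% higher. With no filter on low values only 3 of the 6 kept the call. Hoxa5 and Hoxc12 each lost it in 5 of the 8 fits that left out 1 library and Hoxb7 in 1. For Hoxa5 these were the fits without emHindgut library 1, 2 or 4 or exHindgut library 2 or 3 (adjusted p = 0.0453 to 0.0544, limma), and for Hoxc12 those without emHindgut library 1, 3 or 4 or exHindgut library 2 or 3 (0.0752 to 0.113).

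**Figure D3:**
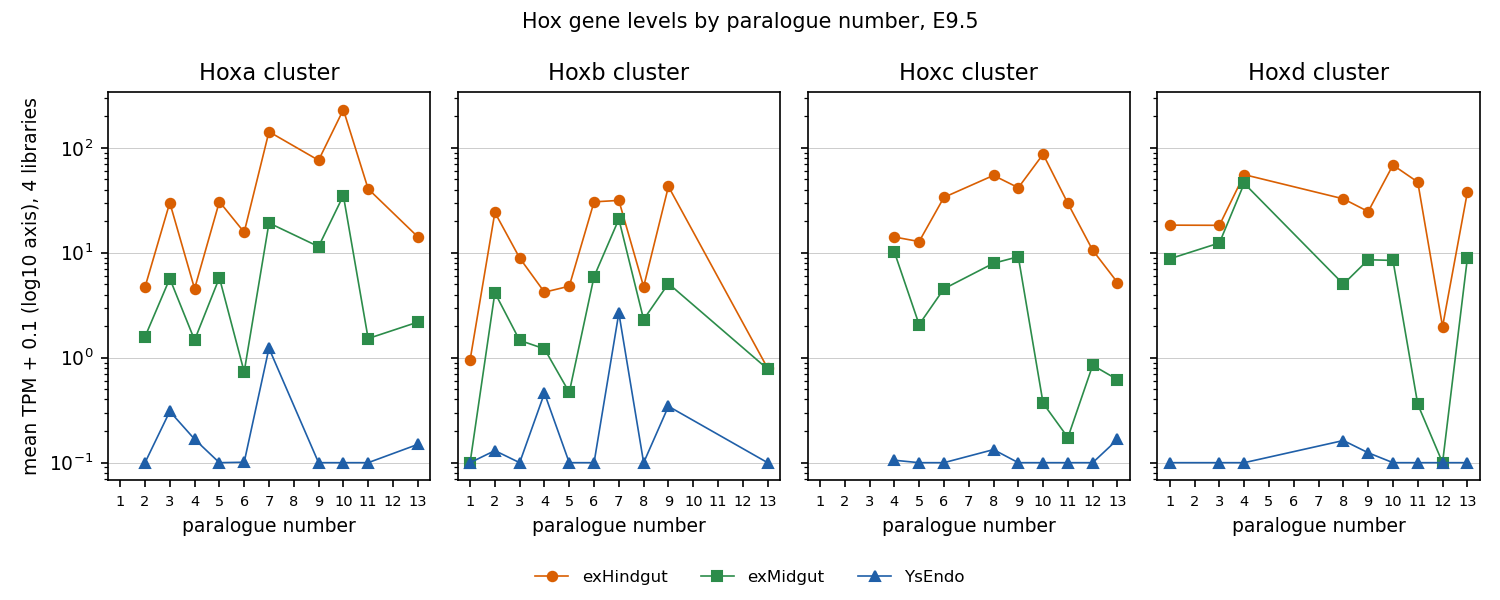
Mean TPM (log10 axis of TPM + 0.1) of 38 Hox genes in exHindgut, exMidgut and YsEndo, by paralogue number within the 4 clusters; each point is the mean of 4 libraries. exHindgut means lie above those of YsEndo for every gene shown, and the distance to exMidgut is widest at Hoxc10, Hoxc11, Hoxd11 and Hoxa11 and narrowest at Hoxb13 and Hoxd4.

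Ligands of the tail bud were among the strongest differences. Fgf8 (ENSMUSG00000025219, chr19:45736798-45742915), the main FGF of the posterior growth zone, was at 591, 431, 376 and 321 TPM in exHindgut and listed at 0 in all YsEndo libraries (log2 difference 8.71 ± 0.20, adjusted p = 1.94e-11, limma). Fgf17 was at 246, 132, 116 and 136 TPM and T, the brachyury factor of the primitive streak and notochord, at 286, 163, 141 and 195 TPM, both again at 0 in YsEndo. Library 1 was the highest of the 4 for these genes. Of 28 FGF and tail bud genes, 19 were tested, 13 were called higher (12 rescaled) and 3 lower, and 7 of the 19 passed the filter only through exHindgut and 1 only through YsEndo. Readouts of FGF signalling rose in part: Etv4 by 4.58, Il17rd by 3.82, Spry2 by 2.63 and Dusp6 by 1.65, while Etv5 at -0.11 and Fgfr1 at 0.85 were not called. Receptors were exchanged, with Fgfr2 at 12.7 to 25.3 TPM against 0.0257 to 0.398 in YsEndo, Fgfr3 at 0 to 0.185 against 10.5 to 14.2, Fgfr4 at 3.29 to 9.46 against 9.27 to 16.3, and Klb, the co-receptor for endocrine FGFs, at 0 to 1.55 against 47.3 to 56.7.

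Tail bud mesoderm markers were also higher in exHindgut. They summed to 18.8 to 107 TPM in exHindgut and 0.127 to 0.481 in YsEndo, and the 3 of 8 that were tested (Hes7, Tbx6 and Dll1) were called higher, all 3 having passed the filter only through exHindgut. Msgn1 was at 59, 0, 28.3 and 25.4 TPM and Tbx6 at 15.6, 1.66, 21.2 and 9.62 TPM in exHindgut libraries 1 to 4. Library 1, the highest for Fgf8, Fgf17 and T, was also the highest for Msgn1, but library 3 was the highest for Tbx6. Library 2 was the lowest for both mesoderm genes but not for Fgf8, Fgf17 or T, so the order of libraries was shared only in part. The part of tail bud mesoderm in the difference of these ligands was not tested.

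For the Wnt pathway, 27 of 29 tested genes of 35 were called higher (23 rescaled) and none lower (1 rescaled, Fzd5), with 20 of the 29 passing only through exHindgut. The pathway sum was 1146 to 1283 TPM against 65.3 to 79.7. Among ligands, Wnt5b was at 272, 282, 229 and 177 TPM against 0.569, 0.778, 0.53 and 0, Wnt5a at 72.4 to 91.6 against 0 to 0.366, and Wnt3a at 12.6 to 32.6 against 0. Rspo3, which potentiates Wnt signals, was at 188, 115, 122 and 147 TPM and listed at 0 in YsEndo. Lef1, the transcriptional partner of beta-catenin, was at 125, 218, 164 and 197 TPM against 0 to 0.0933. Feedback targets rose with them, Nkd1 by 5.29, Axin2 by 3.83, Sp5 by 4.84, Notum by 2.46 and Rnf43 by 4.41, and so did the secreted inhibitor Dkk1, at 36.9 to 109.9 TPM against 0.752 to 1.23. Fzd10 (4.78), Fzd3 (3.82) and the non-canonical receptor Ror2 (4.29) were the receptors with the largest differences. Tcf7l2 (0.28) was not called. Antagonists such as Dkk1, Notum and Nkd1 thus moved in the same direction as the ligands.

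For the Hedgehog pathway, 10 of 12 tested genes were called higher (8 rescaled) and none lower, with 6 of the 12 passing the filter only through exHindgut. Besides Shh, the receptor gene Ptch1, itself a target of the pathway, was at 30.3 to 49.2 TPM against 3.15 to 5.91. Gli3 rose by 5.05, Gas1, a co-receptor, by 3.47, Gli1 by 2.48 and the signal transducer Smo by 2.72. Ihh was the ligand shared by both tissues, at 4.19 to 20.6 TPM against 10.6 to 12.7 (0.10), and with Sufu (0.10) it was not called.

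BMP genes gave 18 higher (15 rescaled) and 2 lower (3 rescaled) of 24 tested, of which 3 passed only through exHindgut and 1 only through YsEndo. Bmp4 was at 122, 187, 173 and 124 TPM in exHindgut and 0.922, 1.16, 0 and 0 in YsEndo. Targets and feedback inhibitors of BMP followed: Bambi, a pseudoreceptor, differed by 5.32, Msx2 by 4.20, Msx1 by 3.32, Smad6 by 2.43 and Id3, the most abundant, by 2.48, from 190.2 to 259 to 1112 to 1673 TPM. Bmp6, which controls iron balance in liver, went the other way at 5.91 to 9.48 TPM in YsEndo and essentially 0 in exHindgut, as did Smad9 (-1.18). Bmp7 (-0.90) was not called as deposited.

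The retinoid pathway was divided. Among the lower genes, Rbp4, the serum carrier of retinol, was at 85.1, 40.4, 31.5 and 41.6 TPM against 10743, 12829.9, 11944 and 12165, a 240.2-fold ratio. Bco1, which cleaves carotene, fell by 5.53, Rdh11 by 1.78 and the retinol dehydrogenase Rdh10 by 2.49. Genes for uptake, degradation and response were higher, namely Stra6, the RBP4 receptor, by 4.42, Cyp26a1, which degrades retinoic acid, by 5.94, Crabp1 by 4.16, Rarb by 3.98 and Rarg by 4.36. Cyp26a1 was at 231, 218, 265 and 196 TPM in exHindgut and 0.67, 3.69, 13.8 and 0.615 in YsEndo. Of 18 tested, 9 were called higher under both scalings and 5 lower (6 rescaled), with 4 of the 18 passing only through exHindgut and 1 only through YsEndo, and Dhrs3 (-0.29) was not called as deposited.

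**Figure D4:**
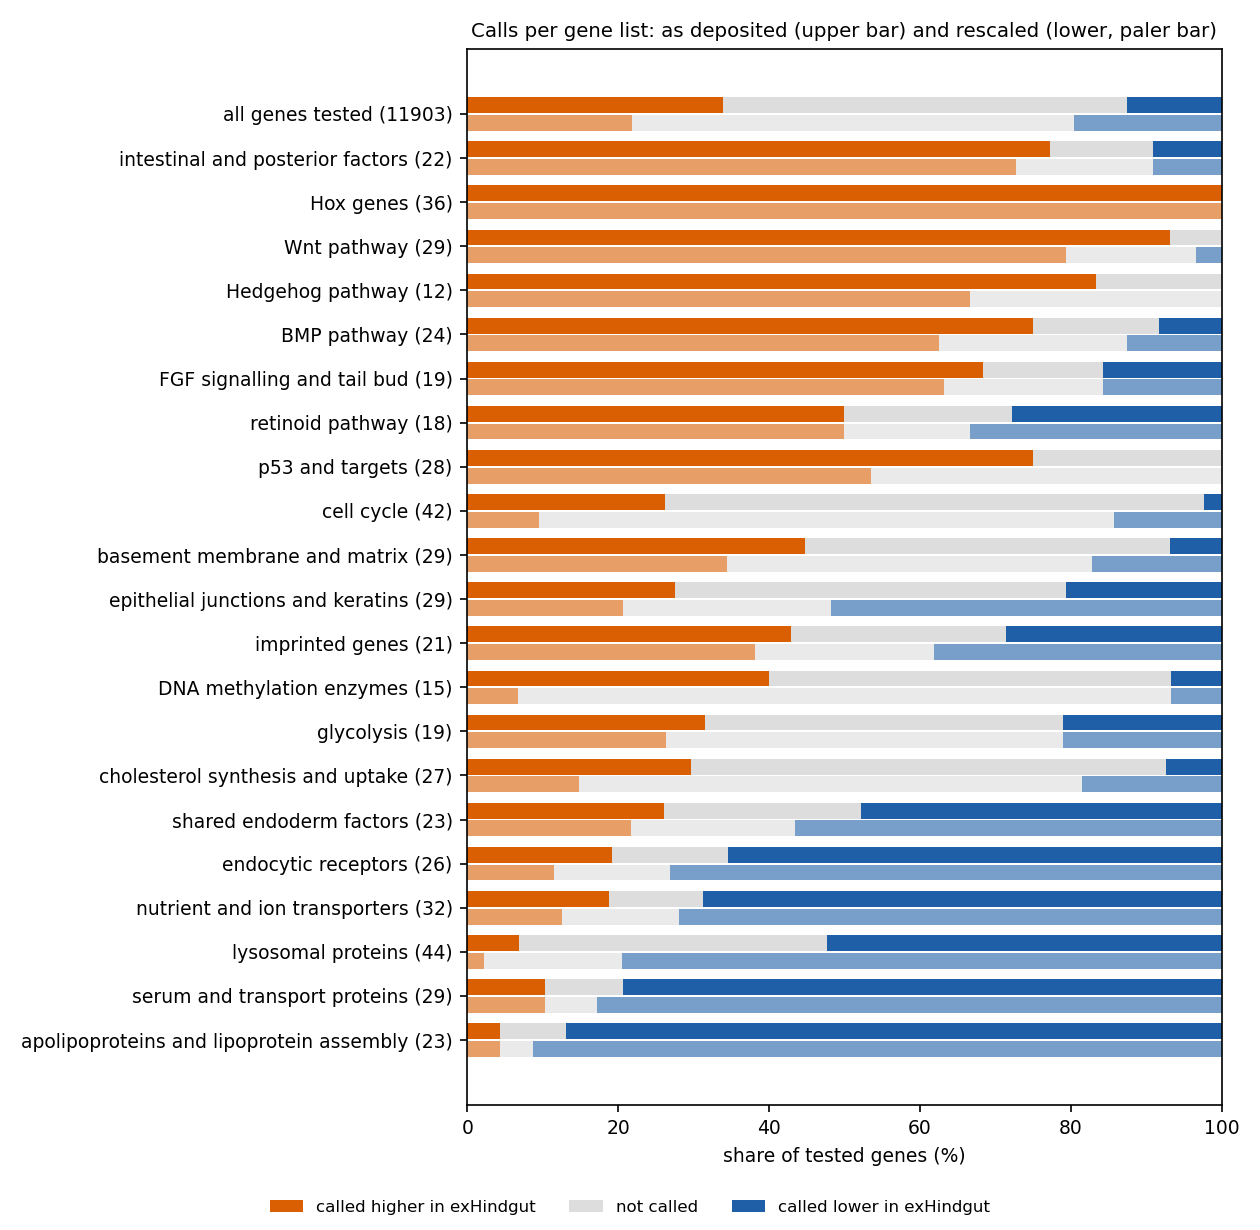
Share of tested genes called higher (orange), lower (blue) or not called (grey) in exHindgut against YsEndo, for all genes and for each functional list, as deposited (upper bar of each pair) and after median-ratio rescaling (lower bar); the number tested stands after each name. Signalling lists lie towards orange under both scalings, nutrition lists towards blue, and the bars for cell cycle, junctions and lysosomal proteins change with the scaling.

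Lipoprotein genes made up the other pole. Of 25 listed, 23 were tested, 20 were called lower (21 rescaled) and 1 higher, against 12.5% (19.5%) of all genes. The median difference was -4.60 (-5.01 rescaled), and 4 genes passed only through YsEndo. The summed level was 289 to 361 TPM in exHindgut and 43079 to 51784 in YsEndo. Apoa1, the main protein of high-density lipoprotein, was at 0, 2.69, 7.22 and 7.88 TPM against 14160.3, 18414, 19249 and 19159 (-12.09 ± 0.53). Apob, the structural protein of chylomicron and low-density particles, differed by -7.75, Mttp, which loads lipid onto it, by -4.38, and Apoe by -8.41. Apoa4, made where dietary lipid is absorbed, was at 0, 0, 0 and 1.72 TPM against 1843 to 3038. Apoc3 and Fabp2 were listed at 0 in all exHindgut libraries against 231 to 276 and 115 to 164 TPM. The 1 higher member was Pltp, a phospholipid transfer protein, at 8.8, 2.98, 23.4 and 30.5 TPM against 5.01e-04 to 0.232. Sar1b, a coat GTPase of general secretion, at -0.87 and Dgat1 at 0.62 were not called as deposited.

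Serum and transport proteins gave 23 lower (24 rescaled) and 3 higher of 29 tested, with 10 passing only through YsEndo. Their sum was 209.8 to 882 TPM in exHindgut and 50464 to 55334 in YsEndo. The fibrinogen chain gene Fga was at 0, 0, 0.384 and 0 TPM against 326, 354, 413 and 378, prothrombin, encoded by F2, was listed at 0 against 77.7 to 121, and transferrin, encoded by Trf, was at 10.9 to 24.4 against 1806 to 2426. Gc, which carries vitamin D, and Igfbp1 were listed at 0 in exHindgut against 11.8 to 18.5 and 16.2 to 46.5 TPM. Albumin, encoded by Alb, was at 0 to 0.793 TPM in YsEndo and 0 to 0.671 in exHindgut and was not tested. Higher in exHindgut were Serpinf1 (1.98), Vtn (1.88) and Serping1 (1.42). Hpx (0.11) and Itih2 (-0.40) were not called.

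Promoter sequences were searched for short motifs, not all of which are reported here, a feature that the comparison did not use, in the lipoprotein, serum protein and Hox lists and the largest rises and falls, on both strands between 250 bases before and 50 after the start. The CDX motif CCATAAA, the letters read by Cdx factors, occurred in 4 matched genes and in 903 of 32851 promoters in all (2.75%). They were T and Hoxd4, higher in exHindgut, and Fabp1 and Lgals2, lower there. In the lists this was 1 of 22 matched Hox promoters (4.55%), 1 of 19 in the lipoprotein list (5.26%) and none of 30 in the serum protein list. Fabp1, an intracellular carrier of fatty acids in gut and liver, was at 0 to 26.4 TPM in exHindgut and 79.8 to 102 in YsEndo, and Hoxd4 at 40.8 to 82 TPM in exHindgut and listed at 0 in YsEndo. The 4 sequences below (RefSeq, GRCm38.p6, 300 bases each, written in the direction of transcription) are shown because the same letters stand in genes that moved in opposite directions while Cdx2 was higher. Capitals mark the match.
T (chr17:8434173-8434472, plus strand): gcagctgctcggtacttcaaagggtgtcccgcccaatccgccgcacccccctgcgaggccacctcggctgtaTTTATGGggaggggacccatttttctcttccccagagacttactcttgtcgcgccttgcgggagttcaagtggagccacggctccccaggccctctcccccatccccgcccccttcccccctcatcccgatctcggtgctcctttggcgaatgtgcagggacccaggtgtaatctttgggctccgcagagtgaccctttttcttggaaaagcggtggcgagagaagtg
Hoxd4 (chr2:74721728-74722027, plus strand): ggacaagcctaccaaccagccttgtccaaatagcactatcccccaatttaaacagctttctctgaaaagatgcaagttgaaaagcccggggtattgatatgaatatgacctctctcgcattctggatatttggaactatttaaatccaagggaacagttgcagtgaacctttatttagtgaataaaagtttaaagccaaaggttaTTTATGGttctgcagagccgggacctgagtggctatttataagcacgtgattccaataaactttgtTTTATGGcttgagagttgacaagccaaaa
Fabp1 (chr6:71199629-71199928, plus strand): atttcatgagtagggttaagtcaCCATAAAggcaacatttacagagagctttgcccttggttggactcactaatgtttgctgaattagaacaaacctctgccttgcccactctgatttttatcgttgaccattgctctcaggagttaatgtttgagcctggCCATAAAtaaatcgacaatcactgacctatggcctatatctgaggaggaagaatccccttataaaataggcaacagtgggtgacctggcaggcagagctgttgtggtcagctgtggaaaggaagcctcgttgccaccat
Lgals2 (chr15:78855480-78855779, minus strand): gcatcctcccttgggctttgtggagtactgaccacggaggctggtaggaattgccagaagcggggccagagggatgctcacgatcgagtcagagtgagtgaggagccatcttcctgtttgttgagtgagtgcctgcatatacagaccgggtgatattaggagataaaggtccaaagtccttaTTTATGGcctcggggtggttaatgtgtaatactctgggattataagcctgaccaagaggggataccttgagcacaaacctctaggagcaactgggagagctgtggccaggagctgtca
The match began 178 bases before the start in T and 68 before it in Lgals2. Hoxd4 and Fabp1 carried it at 2 places, Hoxd4 beginning 45 bases before the start and 22 after it, and Fabp1 beginning 227 and 89 bases before it. Only in Fabp1 did the letters run in the direction of transcription. A match is a description of letters, not evidence of binding. The HNF4 motif CAAAGTCCA occurred in none of the lists and in 0.475% of all promoters, and the GATA factor motif AGATAAG in Lcat and Serpinf2 (3.04% of all).

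The transcription factors of hepatic and visceral endoderm were partly exchanged. Hnf4a, a nuclear receptor required in visceral endoderm, was at 0, 0, 0.116 and 0 TPM in exHindgut and 48.6, 44.3, 51.8 and 51.5 in YsEndo (-5.60 ± 0.21, adjusted p = 7.31e-10, limma). Creb3l3, a membrane-bound regulator of apolipoprotein genes, was listed at 0 against 112 to 169 TPM, and Gata4 was at 0 to 0.469 against 19.3 to 24. The opposite direction was taken by Foxa1, at 21, 27.9, 38.7 and 33.5 TPM against 3.51, 0.481, 1.9 and 1.22, by Sox17 (2.84), Hhex (2.74), Prox1 (1.90) and Klf5 (1.70). In all, 6 of 23 tested factors were higher (5 rescaled) and 11 lower (13 rescaled), with 6 of the 23 passing only through YsEndo and 2 only through exHindgut, and Foxa3 (-0.64) was not called as deposited.

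Uptake of maternal protein relies on a receptor complex of cubilin, amnionless and megalin with the adaptor DAB2, and all of its genes were lower in exHindgut. Cubn was listed at 0 in all 4 libraries against 711, 638, 661 and 669 TPM. Amn was at 0.167, 1.94, 3.35 and 4.43 TPM against 708, 1338, 1551 and 1521, Lrp2, which encodes megalin, at 7.2, 5.2, 0.605 and 4.89 against 66.1 to 74.6, and Dab2 at 2.65, 10.3, 11 and 11.7 against 1066 to 1274. Over 26 endocytic genes tested, 17 were lower (19 rescaled) and 5 higher (3 rescaled), and 2 of the 26 passed only through YsEndo and 1 only through exHindgut. The higher members included other cargo receptors, namely Tfrc for transferrin, at 46.4 to 64.9 TPM against 12.3 to 25.2, Vldlr (3.43) and Lrp1 (2.27). General trafficking genes such as Rab7 (-0.81) and Snx5 (0.27) were not called as deposited.

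Downstream in the same route, 23 of 44 lysosomal genes were lower as deposited and 35 after rescaling, and 3 (1 rescaled) were higher. Their sum was 2859.6 to 3001 TPM against 14591 to 16278. Of the cysteine proteases, Ctsh was at 17, 5.31, 11.2 and 15.2 TPM against 958, 1074, 1113 and 950.2, Ctsc differed by -5.30, Lgmn by -4.34, and Ctsl, the most abundant, by -3.45, from 3064 to 3852 to 273 to 346 TPM. Plbd1 fell by 5.84. By contrast the aspartic protease gene Ctsd (-0.76) and the membrane protein gene Lamp2 (-0.85) were not called as deposited, and Gusb rose by 2.58.

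Nutrient and ion transporters were lower for 22 (23 rescaled) and higher for 6 (4 rescaled) of 32 tested, with 5 passing only through YsEndo and 2 only through exHindgut. The amino acid exchanger Slc7a9 was at 0 to 3.5 TPM against 196 to 275, the glucose transporter Slc2a2 at 0.543 to 1.82 against 193 to 228, the sulphate transporter Slc13a4 at 0.42 to 2.78 against 206 to 209.8 and the zinc transporter Slc39a5 at 0 to 6.55 against 183 to 248. Folr1, the folate receptor, remained at 37.9 to 52 TPM in exHindgut against 609 to 760.4. Iron genes divided, since the exporter Slc40a1 was lower (-2.07) and the ferroxidase gene Heph, known from intestine, was higher, at 20.9 to 37.4 TPM against 0.134 to 0.788. Slc7a7 (-0.69) and Slc7a5 (-0.26) were not called as deposited.

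Both tissues are epithelia. Of 29 junction and keratin genes tested, 8 were higher (6 rescaled), 6 lower (15 rescaled) and 15 not called (8 rescaled), beside 33.9% and 12.5% of all genes called higher and lower as deposited, and the balance of this list depended on the scaling. Members with large differences held under either. Claudins were exchanged: Cldn2, a pore-forming claudin, was at 1.44, 0, 3.47 and 0.921 TPM against 288, 243, 263 and 267, Cldn4, a sealing claudin, at 219, 226, 277 and 262 against 15, 11.5, 12.7 and 8.77, and Cldn9 at 58.3 to 78.1 against 0 to 3.34. Cdh2, encoding N-cadherin, was at 46.3 to 67.3 TPM against 0 to 0.0947, and the simple-epithelial keratin Krt19 at 229 to 336 against 16.7 to 32.5. Cdhr2, a protocadherin of the brush border, fell by 5.99, while Cldn6 (-0.51) and Krt8 (-0.32) were not called as deposited.

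Basement membrane and matrix genes comprised 13 higher (10 rescaled) and 2 lower (5 rescaled) of 29 tested, 4 of which passed only through exHindgut. The 2 lower members encode collagen IV chains, Col4a1 at 10.9 to 18.3 TPM against 57.6 to 70.8 and Col4a2 at 2.43 to 5.33 against 19.3 to 21.9. Fbn2, encoding fibrillin 2, was at 37.8 to 56.7 TPM against 0 to 0.0725. Mmp14, a membrane metalloproteinase, rose by 4.26, Timp2 by 3.67 and fibronectin, encoded by Fn1, by 1.33 (0.77 rescaled, not called). Sparc (-0.95) and Serpinh1 (0.44) were not called as deposited.

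Cell cycle genes, all 42 tested, were mostly not called (30, or 32 rescaled), with 11 higher and 1 lower as deposited and 4 higher and 6 lower after rescaling. The exception in size was cyclin D. Ccnd1 (ENSMUSG00000070348, chr7:144929931-144939925) was at 304, 222, 220.4 and 256 TPM in exHindgut and 0.719, 1.33, 0.231 and 0.471 in YsEndo (7.25 ± 0.22, adjusted p = 1.33e-10, limma), and Ccnd2 at 91.1, 83.1, 130.1 and 123 against 1.13, 0.92, 0.252 and 0.31. Ccnd3 was abundant in both, at 127 to 173 TPM against 191 to 257. Cdk6, a partner of these cyclins, rose by 3.02 and the replication licensing gene Mcm3 by 1.59. Cyclin E, encoded by Ccne1, was lower, at 34.6 to 49.6 TPM against 87.2 to 109. The mitotic genes Birc5 (-0.96) and Cdc20 (0.16) were not called as deposited.

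Genes of the p53 pathway, which arrests the cycle and can trigger apoptosis, were higher in exHindgut. Of 28 tested, 21 were called higher (15 rescaled) and none lower, with a median of 2.00 (1.47 rescaled) beside 0.56 (0.05) for all genes. The summed level was 2548 to 3297 TPM against 684 to 818. Trp53 itself was at 226, 230, 259 and 209 TPM against 41.7, 45.7, 64.1 and 49.9 (2.19 ± 0.14, adjusted p = 5.76e-08, limma). Cdkn1a, encoding the cell cycle inhibitor p21, was at 586, 701, 489.6 and 541 TPM against 29.8, 44.4, 39.2 and 57.4, a 13.6-fold ratio. Phlda3 was at 147, 91.2, 129.5 and 243 TPM against 3.02 to 8.03, Eda2r, a receptor of the tumour necrosis factor family, at 58.5, 91.1, 39.8 and 67.6 against 1.25 to 2.94, and Plk2 at 112, 140.3, 101 and 169 against 1.03 to 2.33. The apoptosis genes Bbc3 (2.64), Pmaip1 (1.99) and Apaf1 (2.18) were called higher under both scalings. Bax (1.24) was called only as deposited, and Mdm2 (0.39) and Aen (0.83), which p53 also induces, were not called.

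**Figure D5:**
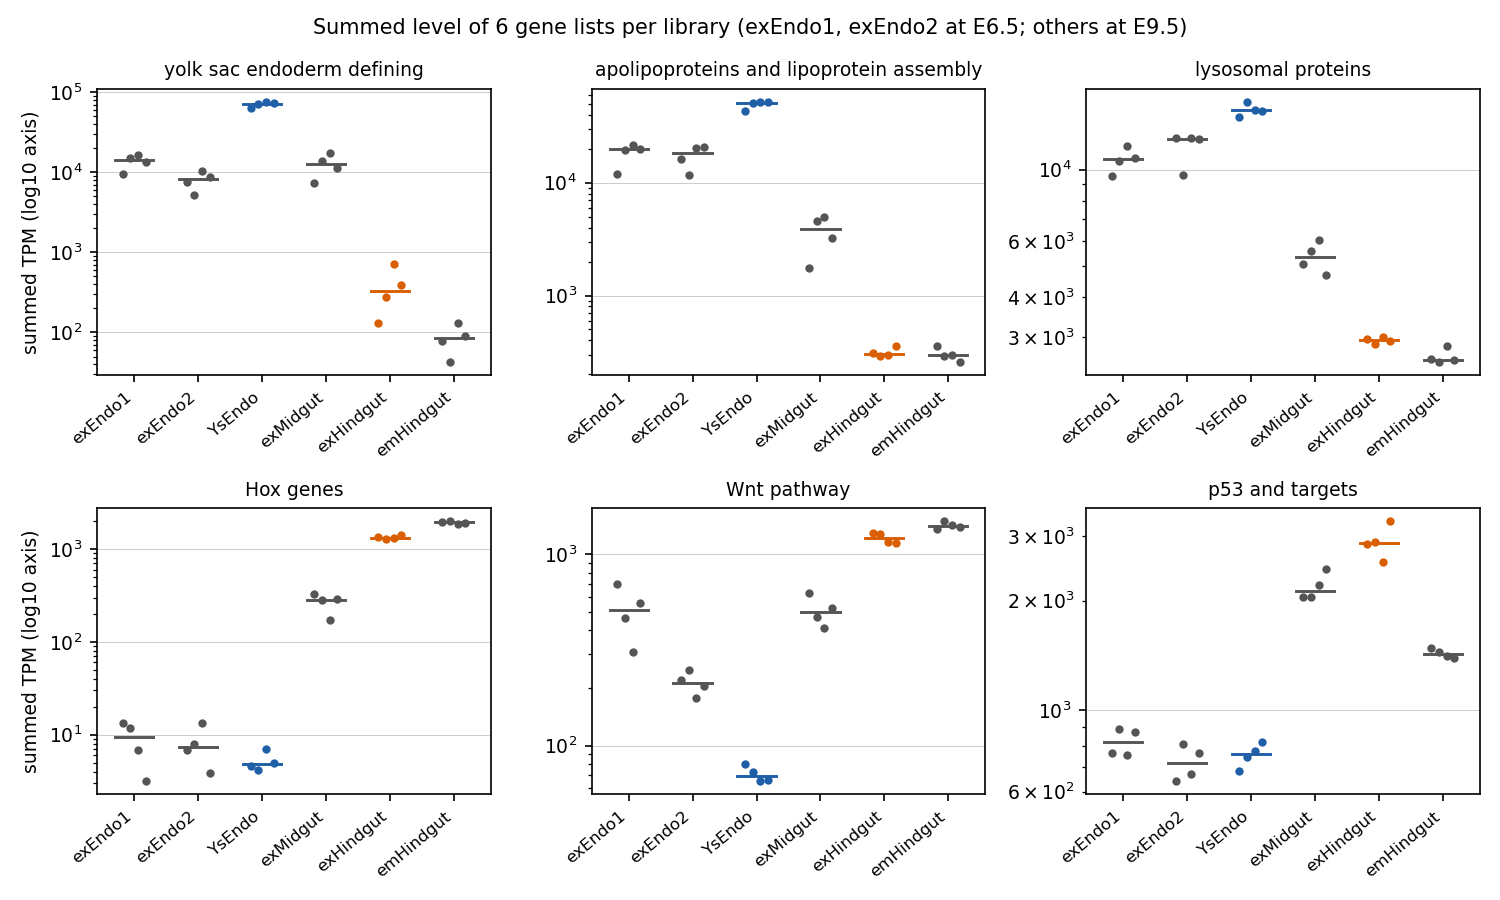
Summed TPM (log10 axis) of 6 lists in every library of exEndo1, exEndo2, YsEndo, exMidgut, exHindgut and emHindgut; points are libraries and short lines medians. Yolk sac defining genes, apolipoproteins and lysosomal genes are lowest in the 2 hindgut groups, Hox and Wnt genes are highest there, and the p53 list is highest in exHindgut.

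Set beside the other groups, the p53 list was highest in exHindgut. Its sum was 1394 to 1485 TPM in emHindgut and 2043 to 2433 in exMidgut. Against emHindgut, 13 of 27 tested genes were called higher and none lower, beside 1.37% and 1.7% of all genes. Against exMidgut, 7 of 28 were higher and 1 lower (Cdkn2a), beside 4.5% and 6.78%. Leaving out any 1 library kept the first count at 11 to 13, while the second dropped to 3 without exHindgut library 4. Cdkn1a averaged 256 ± 49.2 TPM (SD, n = 4) in emHindgut and 579 ± 90.3 in exHindgut, and Trp53 238 ± 12.8 and 231 ± 20.8. These comparisons share the exHindgut libraries with the comparison against YsEndo and are not independent of it.

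Glycolytic genes are known for tissue-specific isoforms. The liver pyruvate kinase gene Pklr was at 0 to 0.454 TPM in exHindgut against 17.2 to 30.1. Pkm, its counterpart in other tissues, rose by 1.84 and Ldhb by 3.74, at 559.9 to 628 TPM against 33.3 to 53.3, while Pfkp fell by 2.97. Of 19 glycolytic genes tested, 6 were higher (5 rescaled) and 4 lower, and Ldha (0.13) and Gapdh (0.25), the most abundant, were not called. Cholesterol synthesis and uptake gave 8 higher (4 rescaled) and 2 lower (5 rescaled) of 27, with Sqle (2.02) and Cyp51 (1.88) leading and Stard4 (-1.67) opposed. Neither Fdps (0.86) nor Pmvk (-0.51) was called as deposited. Compared with emHindgut, 7 of the 27 were called lower in exHindgut (1.7% of all genes) and none higher, a count that ran from 3 (without emHindgut library 1) to 8 (without exHindgut library 3) when 1 library was left out and stood at 4 without emHindgut library 2, emHindgut library 4 or exHindgut library 1.

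Genes that mark extraembryonic origin were shared by both tissues. The host reporter mCherry was at 6775, 7458, 6991 and 7031 TPM in exHindgut and 2186, 3473, 3500.2 and 4289 in YsEndo (1.11, or 0.55 rescaled and not called), and EGFP at 0 to 2.38 TPM in exHindgut and 0 to 0.467 in YsEndo. Rhox5, an X-linked homeobox gene that the study uses to mark extraembryonic origin in the gut, was at 814, 863, 740.1 and 839 TPM against 1771, 2005, 1818 and 1884, the lower value being that of exHindgut (-1.20). In emHindgut it averaged 1.88 ± 2.52 TPM. Trap1a was at 484 to 588 against 881 to 958 (-0.77, called lower only after rescaling). The 30 origin markers summed to 2638 to 2785 TPM in exHindgut, 3594 to 3849 in YsEndo and 6.52 to 15.9 in emHindgut. Of 20 tested against YsEndo, 6 were higher (1 rescaled, Mov10l1 at 1.75), and 1 lower (2 rescaled). Stag3 (1.22) and Xlr5a (1.20) were among those called only as deposited and Xlr3a (0.33) was not called. Xist was at 42.4 to 75 TPM against 14.4 to 41.9. By the paper, host-derived cells could be of either sex, and the mix in each pool is not known here. Its part in the differences of Xist and of X-linked origin markers such as Rhox5 was not tested.

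Imprinted genes divided, with 9 higher (8 rescaled) and 6 lower (8 rescaled) of 21 tested. Mest, expressed from the paternal allele, was at 316, 249, 332 and 208 TPM against 4.03, 3.61, 2.65 and 4.46, Ndn differed by 5.45, Snrpn by 4.87 and Nnat by 4.36. The growth-restraining Phlda2, expressed from the maternal allele, was at 195, 353, 115 and 134 TPM against 1472, 2146, 2313 and 2159.8, and Peg10 fell by 2.13. Cdkn1c (-0.35) and Sgce (-0.16) were not called. Of 15 tested genes listed for DNA methylation and its readers, 6 were higher as deposited, 1 of them (Mbd1, 1.62) also after rescaling. The 1 lower member was Zfp42, better known as a zinc finger factor of pluripotent cells (-2.76). The methyltransferase genes Dnmt3b (1.37, 0.83 rescaled), Dnmt1 (1.19, 0.64 rescaled) and the binding protein gene Mbd4 (1.41, 0.89 rescaled) were called only as deposited, and Dnmt3a (0.36) and Cbx7 (0.90), which encodes a Polycomb protein, were not called.

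Extraembryonic cells of the midgut lay between the tissues for the yolk sac programme. The 10 yolk sac defining genes summed to 7262 to 17368 TPM in exMidgut and 42.9 to 129.9 in emHindgut. Afp averaged 6588 ± 1543 TPM in exMidgut against 186 ± 179 in exHindgut. Between exHindgut and exMidgut, 9 of the 10 were called lower, 13 of 21 lipoprotein genes, 24 of 25 serum protein genes and 16 of 44 lysosomal genes, beside 6.78% of all genes, and no member of these lists was called higher. Of the 38 serum protein genes listed, 16 averaged above 1 TPM in exHindgut and 30 in exMidgut. Some tested members thus passed the filter mainly through exMidgut and were bound to be lower. How many did so was not counted. The genes that define hindgut summed to 1317 to 1532 TPM in exMidgut, above the 1113 to 1287 in exHindgut. Of 9 tested against exMidgut, 4 were higher and 2 lower, beside 4.5% and 6.78% of all genes. Leaving out any 1 library kept the higher count at 4, while the lower count ran from 0 (without exHindgut library 1) to 2. The sum of these genes thus did not set hindgut apart from midgut. Fgf8 (8.55), Cyp26a1 (7.23) and Fgf17 (6.72) were the listed genes with the largest rises over exMidgut, and Apoa1 (-8.24), Lgals2 (-7.78) and Spp2 (-6.71) those with the largest falls. Among listed genes that were also called against YsEndo, the largest differences from emHindgut were those of mCherry (11.43), Rhox5 (8.58), Xlr5a (7.42), Cdkn2a (6.44), Xlr5b (6.34) and Xlr5c (5.80). Afp (7.99 ± 7.48 TPM in emHindgut), Ttr and Apob were the 3 yolk sac defining genes still called higher in exHindgut than in emHindgut. Ttr lost its call in 6 of the 8 fits that left out 1 library (adjusted p = 0.0859 to 0.119, limma), namely those without one of emHindgut libraries 1, 2 and 4 or exHindgut libraries 2, 3 and 4. Cdx4, a Cdx gene of the tail bud that was not tested against YsEndo, averaged 481 ± 43.1 TPM in emHindgut and was at 16.2, 0, 0 and 0.0797 TPM in exHindgut (-7.85).

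At E6.5 the distal (exEndo1) and proximal (exEndo2) extraembryonic endoderm, the source tissues of the E9.5 groups, differed at fewer genes. Each library there came from manually separated tissue of single embryos. Of 11414 genes tested, 452 (3.96%) were higher and 280 (2.45%) lower in exEndo1. Of the 4035 genes higher in exHindgut at E9.5, 3307 were tested at E6.5, where 241 (7.29%) were higher in exEndo1 and 54 (1.63%) lower. Of the 1489 lower genes 1318 were tested, and 66 (5.01%) were higher and 110 (8.35%) lower in exEndo1. Fgf8 was already at 65.7 ± 38.1 TPM in exEndo1 and 0.293 ± 0.5 in exEndo2 (5.40), Rspo3 differed by 4.29, Cdh2 by 4.21, Mest by 5.71 and the Wnt inhibitor Sfrp1 by 5.73, all towards exEndo1. Fabp3 differed by -5.63. Hox genes were still near 0, at 3.15 to 13.3 TPM in sum in exEndo1. The yolk sac defining genes were on in both, at 9628 to 16246 TPM in exEndo1 and 5217 to 10292 in exEndo2. Hnf4a averaged 55 ± 9.77 TPM in exEndo1, Cubn 518 ± 185 and Apob 801 ± 173, while in exHindgut they averaged 0.0291 ± 0.0581, 0 ± 0 and 4.66 ± 1.42.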

How the data were processed

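RNA-seq libraries of sorted or dissected mouse tissue were deposited as 1 StringTie gene abundance table per library, with columns of TPM, FPKM and mean read coverage. For each library the authors used STAR 2.7.9a for alignment to mm10 extended by both reporter transgenes, after trimming with cutadapt 4.1, and StringTie 2.0.6 with GENCODE VM23 for gene levels. TPM values deposited by the authors sum to a fixed total per library, so a group with a few very abundant transcripts shows lower values for all others. FPKM values, per the file headers given for the same genes, served as an alternative, and the deposited coverage signal divided by FPKM gave the aligned bases per library as a measure of depth, with no interval since TPM keeps no counts. No read counts were used here.

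TPM was summed per gene identifier (32287 identifiers) and tested as log2(TPM + 1) with limma 3.58.1 (R 4.3.3, trended prior variance) on the 8 libraries compared. Gene types came from a GENCODE release older than VM23, which 32235 of the identifiers matched. Genes had to be protein-coding, not Y-linked, and above 1 TPM in at least 4 libraries. P-values were adjusted by Benjamini-Hochberg over all tested genes. The comparisons with exMidgut and emHindgut and of exEndo1 with exEndo2 (4 libraries per group) were fitted in the same way. Groups were taken from the labels. Median-ratio rescaling divided each library by its median ratio to the geometric mean. Named genes were the 12 largest rises and 12 largest falls with a mean of at least 20 TPM and non-overlapping groups, up to 4 called and 2 uncalled members per list with the members that describe it, the members of both defining lists, the reporters, Xist, Rhox5, Trap1a and Trp53, and up to 6 listed genes per further comparison. The comparison, gene lists and tests were chosen with earlier results of these data known. Promoter sequences came from RefSeq (GRCm38.p6). Figures were drawn with matplotlib 3.10.9. Alternatives were a pseudocount of 0.1, no filter, rescaling, quantile normalization, FPKM, no variance trend, all gene types, 1 fit over the 20 E9.5 libraries, the replicate number as a block and leaving out each library. Epiblast libraries and those of later stages were not used here. Some named genes are not reported here.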

Additional observations from a re-analysis of the deposited data

Results flagged for a closer look

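In 16 of 394 groups of 4 libraries (4.06%), 1 library lay far from the other three in log2(TPM + 1), by Dixon's criterion. The groups checked were exHindgut and YsEndo for each named gene with a group mean of at least 1 TPM, and chance flags about 1 in 20 such groups.

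YsEndo library 1 was the separate library in 9 of the 16. It was the lowest for Apoa1 at 14160.3 TPM (18414 to 19249 in the other libraries), Apoe at 6762, Creb3l3 at 112, Phlda2 at 1472 and Pkm at 414 TPM. It was the highest for Lamp2 at 326, Snrpn at 5.21, Stard4 at 125 and Xlr3a at 293 TPM. Epcam was at 279.8 TPM in YsEndo library 3, and Etv5 at 54 TPM in YsEndo library 4.

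Among exHindgut libraries, Cdx4 was at 16.2 TPM in library 1 and at most 0.0797 in the others, and Dab2 was at 2.65 TPM in library 1 and 10.3 to 11.7 in the others. Lin28a was at 98.5 TPM in library 2 and Hoxc11 at 37.4 TPM in library 1. Spp2 was at 4.08 TPM in library 3 and listed at 0 in the others.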

How the results depend on the processing

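The number of genes called in exHindgut against YsEndo stayed within 1.5 times of 5524 under every alternative run, but its split did not. It was 2596 higher and 2326 lower after median-ratio rescaling and 2389 and 2291 after quantile normalization, since both moved the median of all genes. With 1 library left out, 3947 to 4085 were higher and 1454 to 1534 lower. Against emHindgut, 223 genes (107 higher, 116 lower) were called with no filter on low values, and leaving out 1 library gave 252 to 359 in all and 113 to 191 lower, the lower count being 113, 137 and 135 without emHindgut libraries 1, 2 and 4 in turn. A fit with the replicate block gave 5538 calls (4041 higher, 1497 lower). Same-numbered libraries correlated in their deviations at 0.00618 to 0.0373, and not every library correlated best with its own number, so the numbers are not shown to pair them.

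Of 242 tested genes named in the text, 199 were called against YsEndo. After rescaling, 12 of these lost their call, and 15 named genes not called as deposited gained one. Without some 1 library, 4 named genes lost the call. These were mCherry at 0.92 without YsEndo library 1 and Stag3 at 0.95 without YsEndo library 3. The others were Xlr5c, at 0.92 without YsEndo library 4 and 0.96 without exHindgut library 1, and Fabp3. Fabp3 was at -0.89 without YsEndo library 3 and -0.9987 without exHindgut library 1. At least mCherry and Stag3 are in both counts of losses. Of the named genes called in the other comparisons, 22 of 131 against exMidgut, 12 of 39 against emHindgut and 13 of 56 at E6.5 lost the call without some 1 library. Genes named as not called changed sign without passing the test. After rescaling Cdc20 was at -0.40, Dnmt3a at -0.19, Gapdh at -0.31, Hpx at -0.24, Id2 at -0.56, Ihh at -0.41, Ldha at -0.43, Mdm2 at -0.15, Serpinh1 at -0.11, Snx5 at -0.28, Sufu at -0.42, Tcf7l2 at -0.26 and Xlr3a at -0.23. Under quantile normalization Hpx was at -0.88, Ihh at -0.61, Sufu at -0.53 and Tcf7l2 at -0.11, and in FPKM Id2 was at -0.0785. With 1 library left out, Id2 ranged from -0.15 to 0.19, Hpx from -0.22 to 0.46, Ihh from -0.14 to 0.55, Dhrs3 from -0.53 to 0.0576 and Ldha from -0.014 to 0.35. The cause was not tested. Genes under about 1 TPM are limited by depth, and their fold changes depend on the pseudocount.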
